A study of Rattus norvegicus and Mus musculus with 24 samples.

Results

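The genes described here are the amino acid sensors that lie upstream of mTORC1 and the proteins that pass their signal on. They are 10 symbols chosen by name: the cytosolic sensors CASTOR1, SESN1 and SESN2 with the related sestrin SESN3, the lysosomal sensor SLC38A9 and the lysosomal transporter SLC66A1, the GATOR1 subunits DEPDC5, NPRL2 and NPRL3, and FLCN. The choice was made with earlier results of these data known. All 10 were present in both deposited tables, which hold 17376 symbols for mouse and 14931 for rat. All 10 passed the filter on low counts in the rat. Kidneys that lack the lysosomal cystine transporter cystinosin (Ctns KO) were compared with kidneys of wild-type littermates (Ctns WT) by bulk RNA sequencing, to ask how the loss of cystine export from lysosomes alters gene expression. The mice were on a C57BL/6 background (4 Ctns KO and 4 Ctns WT) and the rats on a Sprague-Dawley background (8 Ctns KO and 8 Ctns WT). No treatment, sex or age is given for these animals in the sample descriptions. Rat numbers run from 17 to 32, odd for Ctns WT and even for Ctns KO, and are described below as a lower range (17 to 24) and a higher one (25 to 32), each holding 4 rats per genotype. What the numbers mean is not given in the sources used here.

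mTORC1 is the kinase complex that drives growth when nutrients are plentiful, and amino acids bring it to the lysosomal surface through the Rag GTPases. SESN1 and SESN2 bind leucine and CASTOR1 binds arginine, and in the absence of their ligand they hold back GATOR2, which frees GATOR1 to switch the Rag GTPases off. SLC38A9 reports arginine from inside the lysosome, FLCN acts with its FNIP partners on RagC and RagD, and SLC66A1 (PQLC2) exports cationic amino acids, including the mixed disulphide through which cysteamine empties cystine from lysosomes.

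Between 19309371 and 44449845 reads per mouse and between 24684097 and 40629873 reads per rat fell on genes. The least covered of the 10 genes was CASTOR1 in the mouse, with 122 to 417 reads per library, and SLC38A9 in the rat, with 172 to 334. CTNS itself was lower in the knockout mice without overlap (scaled values of 0.319 to 0.342 against 0.824 to 1.03). In the rats the genotypes overlapped for CTNS (16.8 to 22.2 CPM in Ctns KO and 19.2 to 27.8 CPM in Ctns WT), so this transcript does not check the rat labels. The descriptions name both kidney cortex and proximal tubule cells, and the study's methods for this sequencing name kidney cortex. Markers of the proximal tubule were abundant, with LRP2, SLC5A12 and GGT1 not in the rat table, and those of the distal nephron (summed 3092 to 5136 CPM) and of podocytes and endothelium (718 to 1292 CPM) were measured in every rat as well. These are bulk samples, so fewer cells of a type and less RNA per cell cannot be told apart.

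Levels of the sensors relative to each other were read in the mouse, where gene lengths of the matching build (mm10, GENCODE vM21) were at hand. With reads divided by merged exon length and library size (RPKM), SESN2 was the most abundant in Ctns WT mice at 16.1 ± 2.38 RPKM (SD, n = 4), next to NPRL2 at 14.8 ± 0.561 RPKM, and their ranges overlapped. FLCN followed at 11.5 ± 0.883 RPKM (SD, n = 4), below every NPRL2 value. SESN1 (6.25 ± 0.597 RPKM), SLC66A1 (6.01 ± 0.993 RPKM) and CASTOR1 (5.74 ± 0.230 RPKM) overlapped with each other. NPRL3 at 3.44 ± 0.195 RPKM and DEPDC5 at 2.44 ± 0.0647 RPKM each stood apart from their neighbours in this order. SESN3 (1.41 ± 0.215 RPKM) and SLC38A9 (1.16 ± 0.0558 RPKM) were the lowest and overlapped. The lengths of these last genes are inflated by long annotated exons (15269 and 16704 bases in all for SESN3 and SLC38A9, against 1574 for CASTOR1), which lowers their RPKM. Merged lengths were also long for DEPDC5 (11774 bases) and NPRL3 (7572 bases), so their places in this order rest on the annotation as well. In mm10 coordinates Sesn2 spans chr4:132492032-132510501 on the minus strand, Sesn1 chr10:41809935-41908424 on the plus strand, Castor1 chr11:4218225-4222409 on the plus strand and Flcn chr11:59791408-59810016 on the minus strand.

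In the mouse kidney the sensors did not separate the genotypes at the threshold. With limma on log2(value + 1) and Benjamini-Hochberg adjustment over 17376 symbols, 0 of the 10 genes passed an adjusted p of 0.05, against 4.32% of all symbols. At an unadjusted p under 0.05 there was 1, CASTOR1, against 3191 of all 17376 symbols. On the recovered reads edgeR and DESeq2 also called 0. The median log2 fold change of the 10 genes was 0.014, against 0.000025 over all symbols, on the log2(value + 1) scale, which understates changes of genes with low values. A scaled value is the reads of a gene over the 75th percentile of its library, so a value of 1 equals that percentile.

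CASTOR1, the arginine sensor, came closest in the mouse. Its scaled values were 0.196, 0.186, 0.188 and 0.201 in Ctns WT mice 1, 2, 4 and 7, and 0.128, 0.176, 0.177 and 0.161 in Ctns KO mice 3, 5, 6 and 8. Every knockout lay below every wild type, with mouse 3 the lowest. The log2 fold change was -0.04 (SE 0.015, adjusted p = 0.208, limma), or -0.28 on the recovered reads (SE 0.113, adjusted p = 0.162 from edgeR). CASTOR1 was the only one of the 10 whose mouse groups did not overlap, and 11.6% of all symbols did not.

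SESN2, the stress-inducible leucine sensor, had scaled values of 1.31, 1.36, 0.947 and 1.16 in the Ctns WT mice and 1.31, 1.37, 1.15 and 1.37 in the Ctns KO mice, so the groups overlapped. Its log2 fold change on reads was 0.10 (95% confidence interval -0.12 to 0.32, edgeR). SESN1 lay at 0.530 ± 0.0554 in Ctns WT and 0.540 ± 0.0121 in Ctns KO mice (SD, n = 4 each). SESN3 was 0.459 ± 0.0686 in Ctns WT and 0.540 ± 0.0488 in Ctns KO mice (SD, n = 4 each), with a log2 fold change on reads of 0.22 (interval -0.02 to 0.45, edgeR). The sestrins thus had mouse intervals that all included 0. For the GATOR1 subunits, FLCN, SLC38A9 and SLC66A1 the log2 fold changes on reads ran from -0.05 for NPRL2 to 0.12 for SLC38A9, with each interval including 0.

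**Figure D1:**
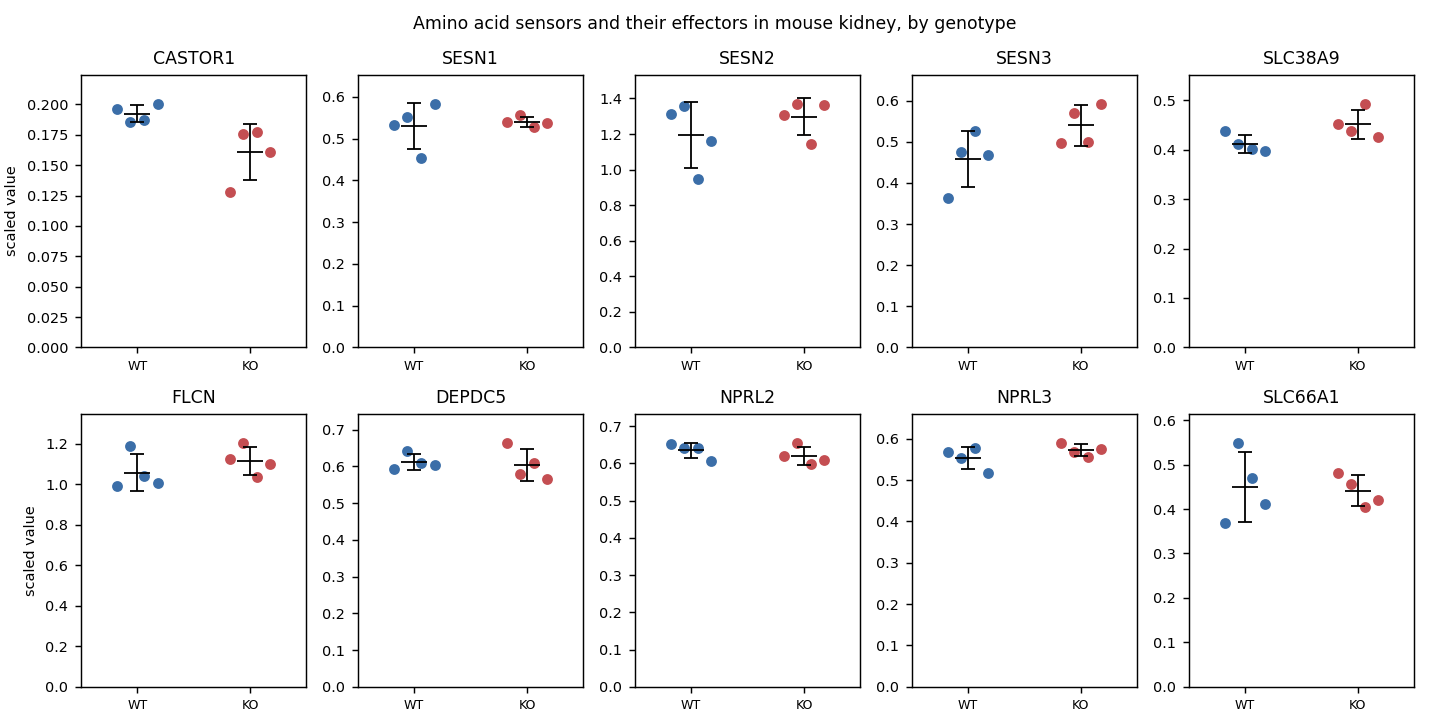
Scaled values (reads over the 75th percentile of the library) of the 10 genes in each mouse, by genotype; points are mice, bars the mean ± SD of 4 mice. The CASTOR1 values of Ctns KO mice (0.128 to 0.177) lie below those of Ctns WT mice (0.186 to 0.201), and the genotypes overlap for the other 9 genes.

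In the rat kidney 4 of the 10 genes fell, SESN2, SESN1, CASTOR1 and FLCN, and 0 rose. With edgeR's quasi-likelihood test, 27.5% of the 11584 symbols tested passed an adjusted p of 0.05 in either direction and 12.3% were lower. The median log2 fold change of the 10 genes was -0.14, against -0.02 over all symbols tested. At an unadjusted p under 0.05 there were 5 of the 10, the fifth being SLC66A1, against 4532 of all 11584 symbols. DESeq2 also called 4, and limma-voom called 3. These counts used TMM scaling. With library totals alone, an alternative chosen after seeing the data, the median of all symbols moved from -0.02 to 0.07 and the share of calls that were lower from 44.7% to 20.6%. The median of the 10 genes then moved from -0.14 to -0.05, and SESN2 alone of the 10 passed.

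The 4 genes called lower over all rats with TMM scaling are shown with the 250 bases upstream of their annotated start. The bases run 5′ to 3′ and come from RefSeq's rat assembly GRCr8. All 10 genes had an entry there. Motif matches are in capitals, on either strand: the E-box CACGTG bound by TFEB and its relatives, the ATF4-C/EBP composite element TGATGNAA, and the antioxidant response element TGACNNNGC bound by NRF2.
SESN2 (chr5:150005256-150005505, minus strand): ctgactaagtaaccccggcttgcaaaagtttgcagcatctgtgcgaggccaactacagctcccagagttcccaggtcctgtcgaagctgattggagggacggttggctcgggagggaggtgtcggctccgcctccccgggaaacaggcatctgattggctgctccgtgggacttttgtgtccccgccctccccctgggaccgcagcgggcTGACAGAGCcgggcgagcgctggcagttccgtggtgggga
SESN1 (chr20:46948469-46948718, plus strand): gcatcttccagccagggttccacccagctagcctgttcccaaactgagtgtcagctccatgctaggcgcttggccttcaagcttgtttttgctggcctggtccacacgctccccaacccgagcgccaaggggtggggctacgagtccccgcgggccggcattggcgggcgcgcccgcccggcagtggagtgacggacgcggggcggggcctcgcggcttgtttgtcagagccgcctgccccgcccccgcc
CASTOR1 (chr14:83309460-83309709, plus strand): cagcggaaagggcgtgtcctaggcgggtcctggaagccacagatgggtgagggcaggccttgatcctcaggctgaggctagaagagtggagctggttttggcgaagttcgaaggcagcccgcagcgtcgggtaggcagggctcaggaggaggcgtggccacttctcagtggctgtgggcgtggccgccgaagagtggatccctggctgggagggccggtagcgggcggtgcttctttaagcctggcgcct
FLCN (chr10:45107290-45107539, minus strand): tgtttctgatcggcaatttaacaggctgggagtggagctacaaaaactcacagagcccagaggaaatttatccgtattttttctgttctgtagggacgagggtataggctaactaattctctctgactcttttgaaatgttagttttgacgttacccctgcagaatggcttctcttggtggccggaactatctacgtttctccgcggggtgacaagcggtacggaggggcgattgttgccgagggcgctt
Among all 33469 rat promoters of this length, 5.59% hold the E-box, 3.4% the composite element and 10.1% the antioxidant element. In these 4 windows the search found 1 match, an antioxidant element on the plus strand of SESN2 at -40 to -32 from the start, and DEPDC5 was the only other of the 10 genes with a match, to the same element on its minus strand. No match overlapped another. G and C made up 64% of the SESN2 window, 69.6% of SESN1, 65.6% of CASTOR1 and 48.4% of FLCN, against a median of 51.2% over all promoters.

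SESN2 showed the largest difference of the 10 in the rat. Among rats 17 to 24 its levels were 127, 137, 127 and 123 CPM (counts scaled to library size after TMM normalization) in Ctns WT rats 17, 19, 21 and 23, and 96.0, 107, 108 and 113 CPM in Ctns KO rats 18, 20, 22 and 24. Among rats 25 to 32 they were 128, 168, 164 and 134 CPM in Ctns WT rats 25, 27, 29 and 31, and 108, 109, 100.3 and 81.7 CPM in Ctns KO rats 26, 28, 30 and 32. No knockout reached the lowest wild type, and the wild types above 160 CPM and the lowest knockout were all among the higher numbers. Over all rats the log2 fold change was -0.43 (SE 0.079, adjusted p = 0.000817, edgeR). SESN2 was the only one of the 10 whose 8 Ctns KO and 8 Ctns WT rats did not overlap, and 5.84% of all symbols tested did not. With library totals the log2 fold change was -0.33 (adjusted p = 0.00492, edgeR), and the call held whichever single rat was left out (log2 fold change -0.45 to -0.37).

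The share of SESN2 within the reads of the 10 genes does not depend on scaling between libraries. In Ctns WT rats it was 25.4% to 30.3% (median 27.5%) and in Ctns KO rats 19.8% to 26.3% (median 25.4%), so that the groups overlapped slightly. In rats 17 to 24 the shares did not overlap, at 26.4% to 29.4% against 23.3% to 26.3%, and in rats 25 to 32 they overlapped, at 25.4% to 30.3% against 19.8% to 25.7%. The mouse shares lay at 16.2% to 21.8% in Ctns WT and 18.96% to 21.5% in Ctns KO. A lower share shows only that SESN2 changed unequally with the other 9 genes.

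SESN1, the sestrin induced by p53 and FOXO factors, differed between number ranges as well as between genotypes. Ctns WT rats 17 to 23 had 54.0, 45.5, 49.3 and 42.6 CPM and Ctns KO rats 18 to 24 had 42.9, 44.3, 40.7 and 41.8 CPM. Ctns WT rats 25 to 31 had 73.3, 73.6, 62.8 and 67.3 CPM, and Ctns KO rats 26 to 32 had 52.7, 47.7, 51.6 and 52.8 CPM. Wild types and knockouts overlapped in the lower range and were separate in the higher one, where the wild types had the highest values of all 16 rats. Over all rats the log2 fold change was -0.32 (SE 0.114, adjusted p = 0.0430 from edgeR), close to the threshold. It missed the threshold with limma-voom (adjusted p = 0.0606), with library totals (-0.22, adjusted p = 0.111, edgeR), and when any 1 of Ctns WT rats 25, 27, 29 and 31 or Ctns KO rats 18, 20, 22, 24, 28 and 30 was left out (adjusted p = 0.0507 to 0.109, edgeR). With number range as a covariate, which takes up the difference between ranges, the log2 fold change was -0.31 and the call was firmer (adjusted p = 0.000721, edgeR). In that model 4551 symbols were called, against 3180 without the covariate, and SESN2 (adjusted p = 0.000399), CASTOR1 (adjusted p = 0.0129) and FLCN (adjusted p = 0.00392) also passed with edgeR. SESN3, the remaining sestrin, had 24.9 to 52.7 CPM (median 35.2) in Ctns WT and 26.4 to 41.8 CPM (median 37.5) in Ctns KO rats, with a log2 fold change of -0.01 (95% confidence interval -0.30 to 0.27).

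CASTOR1 had 55.8, 65.5, 85.6 and 86.2 CPM in Ctns WT rats 17 to 23 and 69.3, 60.3, 60.9 and 58.1 CPM in Ctns KO rats 18 to 24. In the higher numbers it had 76.7, 74.3, 99.7 and 100.6 CPM in Ctns WT rats 25 to 31, against 64.8, 71.6, 62.0 and 71.2 CPM in Ctns KO rats 26 to 32. The knockouts stayed within a narrow band, whereas the wild types spread widely, with Ctns WT rat 17 below every knockout and rat 19 inside their range. The log2 fold change over all rats was -0.31 (SE 0.103, adjusted p = 0.0305 from edgeR). The call was lost with library totals (-0.22, adjusted p = 0.0782, edgeR) and when any 1 of Ctns WT rats 21, 23, 29 and 31 or Ctns KO rats 20, 24 and 30 was left out (adjusted p = 0.0507 to 0.0780, edgeR). The fall in the rat had the same sign as the uncalled difference in the mouse.

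FLCN, the folliculin GTPase-activating protein, fell less but with less spread. Its levels were 76.1 to 91.7 CPM (median 87.9) in Ctns WT and 69.6 to 79.0 CPM (median 76.9) in Ctns KO rats, and the groups overlapped only through Ctns WT rats 19 and 23 at 78.7 and 76.1 CPM. The log2 fold change was -0.18 (SE 0.047, adjusted p = 0.00964 from edgeR), and it kept its call whichever rat was left out. With library totals it was -0.08 (adjusted p = 0.172, edgeR), a fall of the same sign past the threshold no longer.

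The lysosomal members and the GATOR1 subunits did not pass over all rats. SLC66A1 had 11.5 to 15.3 CPM (median 13.4) in Ctns WT and 9.58 to 13.4 CPM (median 11.7) in Ctns KO rats, a log2 fold change of -0.18 (adjusted p = 0.121, edgeR). It passed once number range was added to the model (adjusted p = 0.0150, edgeR). SLC38A9 had 6.37 to 8.74 CPM in Ctns WT and 7.29 to 8.998 CPM in Ctns KO rats, with a log2 fold change of 0.09 (95% confidence interval -0.09 to 0.26). Without that covariate neither lysosomal gene was called in either species. Of GATOR1, DEPDC5 had a log2 fold change of 0.05 (interval -0.11 to 0.21), NPRL2 of -0.02 (interval -0.17 to 0.12) and NPRL3 of -0.10 (interval -0.23 to 0.04).

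**Figure D2:**
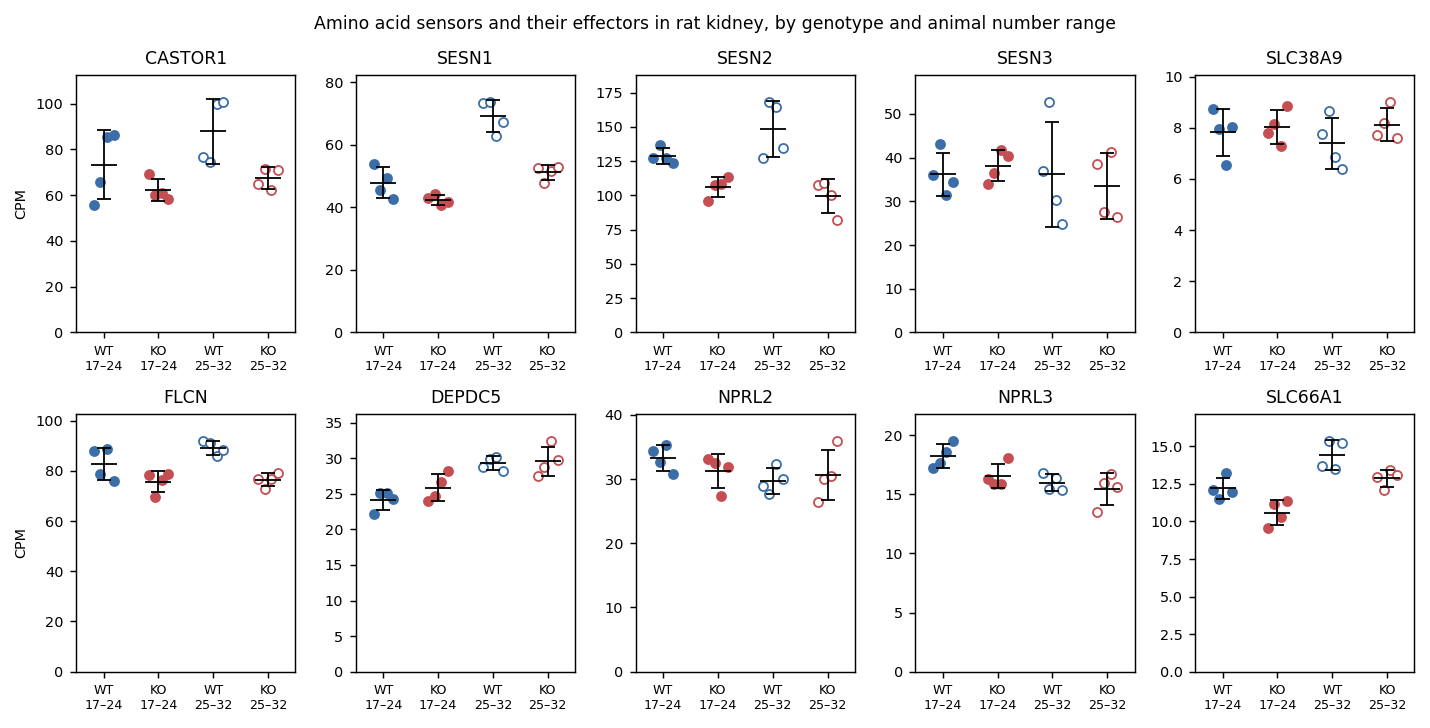
Counts scaled to library size after TMM normalization (CPM) of the 10 genes in each rat, by genotype and number range; points are rats (filled for numbers 17 to 24, open for 25 to 32), bars the mean ± SD of 4 rats. For SESN2 no Ctns KO rat (81.7 to 113 CPM) reaches a Ctns WT rat (123 to 168 CPM), and SESN1 is highest in Ctns WT rats 25 to 31.

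The number ranges were then tested apart, with 4 rats of each genotype in each. In rats 17 to 24, 1 of the 10 genes was called, SESN2, with a log2 fold change of -0.27 (SE 0.059, adjusted p = 0.0161 from edgeR), where 7.26% of all symbols were called and 2.19% were lower. With library totals it was -0.25 and missed the threshold (adjusted p = 0.0574, edgeR). The groups did not overlap for SESN2 and SLC66A1, which is 2 of 10 genes, against 13.7% of all symbols. The median log2 fold change of the 10 genes was -0.13 in this range, against -0.00202 over all symbols.

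In rats 25 to 32, 4 of the 10 genes were lower, the same genes as over all rats, where 43.8% of all symbols were called and 22.1% were lower. The log2 fold changes were -0.57 for SESN2 (SE 0.116, adjusted p = 0.00269), -0.44 for SESN1 (SE 0.072, adjusted p = 0.000776), -0.38 for CASTOR1 (SE 0.105, adjusted p = 0.0143) and -0.22 for FLCN (SE 0.055, adjusted p = 0.00799), all from edgeR. These calls held whichever of the 8 rats was left out. The groups did not overlap for these and for SLC66A1, 5 of 10 genes, against 40% of all symbols. Scaling weighed most in this range: with library totals the median of all symbols moved by 0.16 to 0.15, that of the 10 genes went from -0.14 to 0.02, the share of calls that were lower went from 50.3% to 21.1%, and SESN2 and SESN1 were the ones that still passed. With library totals CASTOR1 was -0.22 (adjusted p = 0.0839, edgeR) and FLCN -0.06 (adjusted p = 0.408, edgeR).

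Whether the genotype difference itself differed between the ranges was tested with an interaction term. With edgeR 0 of the 10 genes passed, against 14.7% of all symbols, and DESeq2 also called 0. At an unadjusted p under 0.05 there were 2, SESN1 and SESN2, against 3835 of all 11839 symbols. The interaction was -0.27 for SESN1 (SE 0.101, adjusted p = 0.0795) and -0.30 for SESN2 (SE 0.135, adjusted p = 0.130), both from edgeR, so a larger fall in rats 25 to 32 was not shown. Without Ctns WT rat 17 SESN1 passed (-0.33, adjusted p = 0.0360, edgeR).

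Among wild types alone, rats 25 to 31 were compared with rats 17 to 23, and 2 of the 10 genes were higher in the higher numbers. Of all symbols 18.3% were called and 8.79% were higher. SESN1 was higher by 0.51 on the log2 scale (SE 0.085, adjusted p = 0.00217 from edgeR). DEPDC5 was 22.2 to 25.2 CPM in the lower and 28.2 to 30.3 CPM in the higher numbers, a log2 difference of 0.25 (SE 0.067, adjusted p = 0.0247, edgeR). The call for DEPDC5 was lost without Ctns WT rat 17, 25 or 29 (adjusted p = 0.0501 to 0.0759, edgeR). These ranges share the wild-type rats with the genotype comparisons above.

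**Figure D3:**
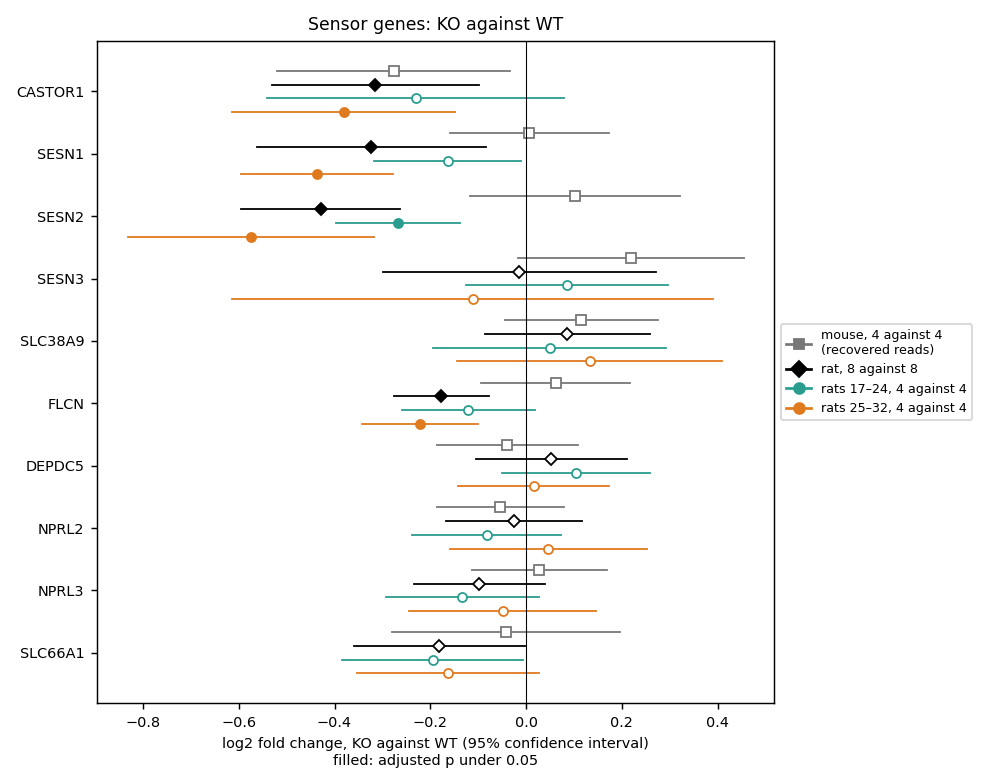
Log2 fold change of Ctns KO against Ctns WT for the 10 genes, with 95% confidence intervals, in mice (edgeR on recovered reads), all rats and each rat number range; filled symbols passed an adjusted p of 0.05. SESN2 lies at -0.43 in all rats and at 0.10 in mice, and no mouse symbol is filled.

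The genotype difference of SESN2 differed between species in limma's interaction test, with both tables scaled alike. The interaction was -0.35 on the log2(value + 1) scale (SE 0.092, adjusted p = 0.0360 from limma), the rat difference being the lower, and it was the 1 call among the 10 genes, where 3.17% of 11216 shared symbols were called. It missed the threshold with edgeR on the reads of both species (-0.50, adjusted p = 0.0532). It also missed it without any 1 of Ctns WT mice 4 and 7, Ctns KO mice 3, 5 and 8, Ctns WT rat 29 and Ctns KO rat 30 (-0.35 to -0.29, adjusted p = 0.0501 to 0.1003, limma). FLCN was next by unadjusted p (interaction -0.13, adjusted p = 0.155, limma). The tables of the species were made separately, so species and the making of the tables cannot be told apart.

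Cell markers moved with genotype and number range in the rats. The summed level of the 9 proximal tubule markers in the rat table was 20770 to 26115 CPM in Ctns WT and 18136 to 19948 CPM in Ctns KO rats 17 to 24, and 30487 to 34847 CPM in Ctns WT and 15318 to 19671 CPM in Ctns KO rats 25 to 32. Over all rats 7 of the 9 markers were lower in the knockouts. Among wild types this sum was higher in the higher range without overlap, and edgeR called 4 of its 9 markers higher and 1 lower there. Of the 10 genes, edgeR called SESN1 and DEPDC5 higher in the same comparison. SLC66A1 (11.5 to 13.2 CPM in the lower and 13.5 to 15.3 CPM in the higher range) was not called. Neither was NPRL3 (17.2 to 19.5 CPM in the lower and 15.3 to 16.8 CPM in the higher range). Macrophage sums (1362 to 1478 and 1490 to 1860 CPM) and lymphocyte sums (31.7 to 46.2 and 49.2 to 59.7 CPM) were also higher in the wild types of the higher range. The sums of the distal nephron (3976 to 4741 and 3092 to 3781 CPM) and of podocytes and endothelium (1174 to 1292 and 875 to 978 CPM) were lower there, each without overlap. In that comparison edgeR called 4 of 12 macrophage markers higher and 1 lower, and 3 of 7 lymphocyte markers tested higher. It called 4 of 6 distal nephron and 7 of 9 podocyte and endothelium markers lower. Abundant genes weigh most in a sum: CD74 had means of 1254 and 1420 CPM and UMOD of 2544 and 2029 CPM in these wild types. In rats 25 to 32 the knockouts had the higher distal nephron sums (4262 to 5136 CPM) and the lower podocyte and endothelium sums (718 to 837 CPM) without overlap, whereas in rats 17 to 24 the genotypes overlapped for both. In rats 25 to 32 edgeR called 3 of 6 distal nephron markers higher and 0 lower, and 3 of 9 podocyte and endothelium markers lower. UMOD, which weighs most in the distal nephron sum, had means of 2029 CPM in Ctns WT and 3148 CPM in Ctns KO rats of this range. Over all rats 2 of 6 distal nephron markers tested were higher, and 0 of 9 podocyte and endothelium markers were called. In mice the proximal tubule sum was lower without overlap (scaled values of 576 to 766 in Ctns WT and 471 to 555 in Ctns KO), while SESN2 overlapped. Limma called 0 of 11 proximal tubule markers in mice, with 3 at an unadjusted p under 0.05, edgeR 2 and DESeq2 3. At that unadjusted p 3191 of all 17376 symbols passed with limma. Other cell markers did differ in mice, where limma called 8 of 12 macrophage, 5 of 10 fibroblast and matrix, 8 of 10 proliferation and 1 of 10 lymphocyte markers higher. Each of these sums was higher in the knockout mice without overlap, with macrophage markers at 6.14 to 7.15 in Ctns WT and 9.40 to 12.003 in Ctns KO (summed scaled values). The distal nephron and the podocyte and endothelium sums overlapped in mice. In the rats macrophage markers summed to 1362 to 1860 CPM in Ctns WT and 1380 to 2462 CPM in Ctns KO rats, with 9 of 12 higher, and lymphocyte markers to 31.7 to 59.7 CPM and 55.7 to 103 CPM, with 7 of 7 tested higher. Fibroblast and matrix markers summed to 367 to 431 CPM in Ctns WT and 475 to 844 CPM in Ctns KO rats, with 8 of 9 higher. Proliferation genes summed to 79.4 to 92.9 CPM in Ctns WT and 118 to 205 CPM in Ctns KO rats, with 8 of 8 higher. The part of these markers in the lower sensor levels was not tested.

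The transcription factors that drive the sestrin genes, and other targets of those factors, were followed from a list of 18 symbols. The list was chosen with earlier results of these data known, so its counts beside the share over all symbols are not a test of enrichment. In the mouse 4 of the 17 tested were higher with limma, where 3.5% of all symbols were higher. In the rat 8 of 17 were higher and 1 lower with edgeR, where 15.2% of all symbols were higher. With library totals 12 were higher and 0 lower in the rat, while the higher calls over all symbols went from 1760 to 2644. On reads, with edgeR in both species, the median log2 fold change of the list was 0.06 in the mouse and 0.20 in the rat. CDKN1A, the p53 target that arrests the cell cycle, ATF3, a stress-induced transcription factor, and CCNG1, a cyclin induced by p53, were higher in both species. CDKN1A had scaled values of 0.156 to 0.208 in Ctns WT and 1.03 to 1.69 in Ctns KO mice, a difference of 0.98 on the log2(value + 1) scale (SE 0.093, adjusted p = 0.00438 from limma) and a log2 fold change of 2.86 on the recovered reads (SE 0.186, adjusted p = 4.64e-05 from edgeR). In the rat it was 4.43 to 7.05 CPM (median 6.13) in Ctns WT and 15.4 to 111 CPM (median 54.3) in Ctns KO, a log2 fold change of 3.24 (SE 0.412, adjusted p = 3.59e-05 from edgeR). The highest knockout levels, 84.4 to 111 CPM, were all in rats 26 to 32.

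ATF3 rose by 2.26 on the log2 scale in the rat (SE 0.281, adjusted p = 2.93e-05, edgeR) and by 1.41 in the mouse on the recovered reads (SE 0.205, adjusted p = 0.000710, edgeR). Its scaled values in the mouse were 0.0238 to 0.0367 in Ctns WT and 0.0627 to 0.104 in Ctns KO, a difference of 0.07 on log2(value + 1) (adjusted p = 0.0193, limma). CCNG1 rose by 0.61 in the rat (adjusted p = 0.00125, edgeR) and by 0.56 in the mouse on the recovered reads (adjusted p = 0.00127, edgeR), or 0.49 on log2(value + 1) (adjusted p = 0.0240, limma). BBC3, a p53 target that promotes apoptosis, was the other mouse call, at 0.0360 to 0.0784 in Ctns WT and 0.0993 to 0.145 in Ctns KO (adjusted p = 0.0492, limma). The ATF4 targets TRIB3, a pseudokinase, and CHAC1, which degrades glutathione, rose in the rat by 1.74 (SE 0.312, adjusted p = 0.000673, edgeR) and 1.59 (SE 0.361, adjusted p = 0.00353, edgeR). TRIB3 was 0.775 to 1.27 CPM in Ctns WT and 1.34 to 6.74 CPM in Ctns KO rats. SESN2 is a known target of the same factors, and its level was lower in the Ctns KO rats, in which these genes were higher. The 1 lower gene of this list in the rat, named after its values were seen, was FOXO1, one of the FOXO factors that induce SESN1. It had 13.9 to 23.9 CPM (median 18.1) in Ctns WT and 7.93 to 17.1 CPM (median 14.7) in Ctns KO rats, a log2 fold change of -0.45 (SE 0.142, adjusted p = 0.0258 from edgeR). In rats 25 to 32 its log2 fold change was -0.74 (adjusted p = 0.0103, edgeR), in rats 17 to 24 it was -0.19 (adjusted p = 0.356, edgeR), and in the mouse it was 0.03 on the recovered reads (adjusted p = 0.864, edgeR). Both the FOXO1 and the SESN1 call over all rats were lost with library totals. FOXO3, also on the list and named after its values were seen, was not called over all rats. It had 14.9 to 24.9 CPM in Ctns WT and 10.4 to 25.8 CPM in Ctns KO rats. From the lower to the higher range, mean FOXO1 went from 18.1 to 18.7 CPM in Ctns WT and from 15.7 to 11.2 CPM in Ctns KO rats. Mean SESN1 went from 47.8 to 69.3 CPM in Ctns WT and from 42.4 to 51.2 CPM in Ctns KO rats. Whether FOXO1 bears on SESN1 was not tested.

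**Figure D4:**
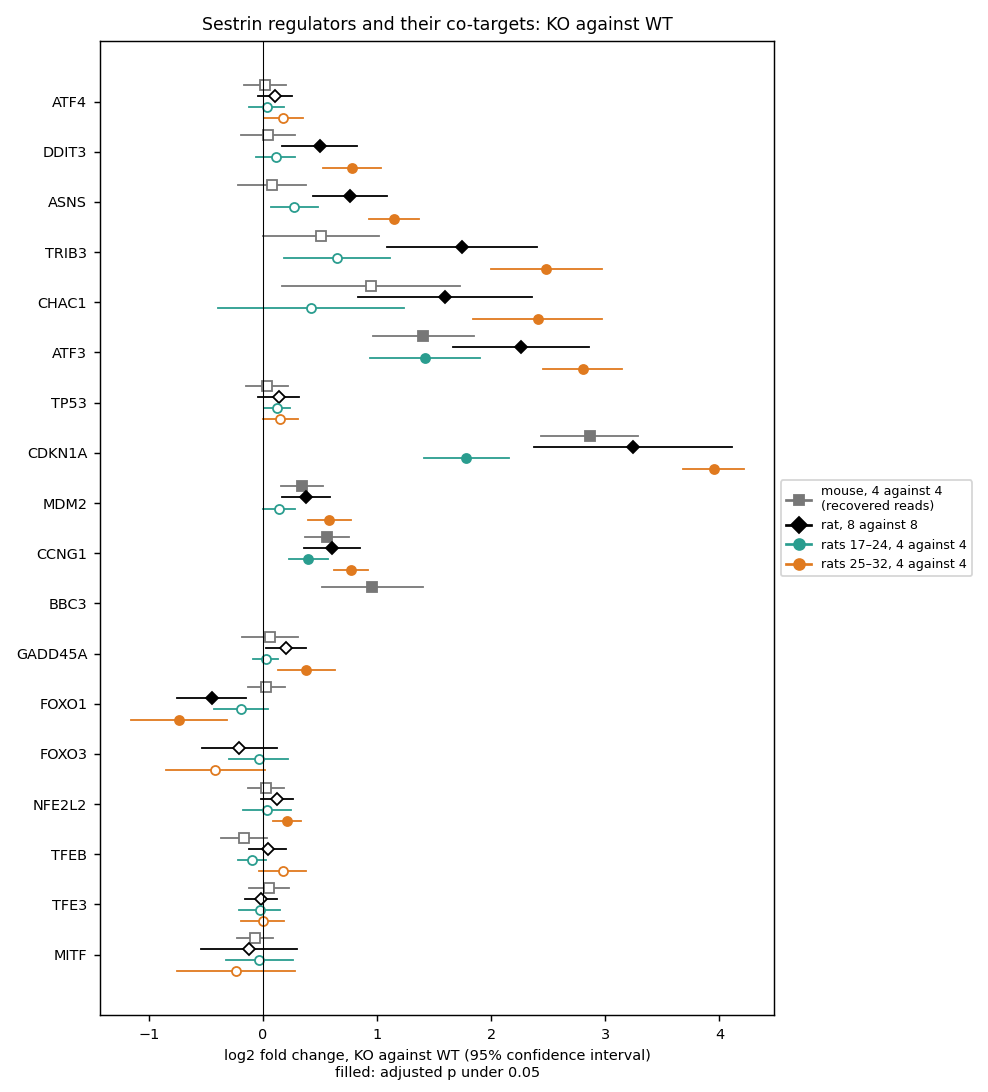
Log2 fold change of Ctns KO against Ctns WT for transcription factors of the sestrin genes and other targets of those factors, with 95% confidence intervals, in mice (edgeR on recovered reads), all rats and each rat number range; filled symbols passed an adjusted p of 0.05. CDKN1A (3.24 in all rats) and ATF3 (2.26) lie furthest to the right, whereas SESN2 had -0.43.

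The rest of the nutrient sensing machinery (GATOR2, KICSTOR, Ragulator, the Rag GTPases, the FNIP partners of FLCN and amino acid transporters) was described from a list of 39 symbols. This list was also chosen with earlier results of these data known. In the mouse 0 of 37 tested were called by limma, with 7 at an unadjusted p under 0.05, against 3191 of all 17376 symbols. On the recovered reads edgeR called 1 and DESeq2 called 2 of 36. In the rat 2 were higher and 4 lower of 32 tested with edgeR, a smaller share than the 27.5% of all symbols called (12.3% lower), with a median of -0.09 on the log2 scale against -0.02 over all symbols. FNIP2, which binds FLCN, fell by 0.64 on the log2 scale (SE 0.219, adjusted p = 0.0384, edgeR), from 94.6 to 254 CPM in Ctns WT (median 148) to 57.6 to 156 CPM in Ctns KO rats (median 97.4). SLC36A4, an amino acid transporter, fell by 0.39 (SE 0.130, adjusted p = 0.0325, edgeR), and SLC3A2, the heavy chain of the leucine exchanger, fell by 0.25 (SE 0.078, adjusted p = 0.0245, edgeR). RRAGD, which encodes RagD, rose by 0.25 (SE 0.089, adjusted p = 0.0419, edgeR). The remaining calls, named after their values were seen, were SLC38A2, a glutamine transporter, at 0.19 and KLHL22, which targets DEPDC5 for degradation, at -0.21.

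These counts depended on the tool and the scaling. DESeq2 called 2 higher and 11 lower over all rats, limma-voom 2 and 6, and edgeR with library totals 3 and 1. In rats 17 to 24 edgeR called 0 of 32, with 3 at an unadjusted p under 0.05, against 2456 of all 11610 symbols. DESeq2 called 2 in these rats. In rats 25 to 32 edgeR called 3 higher and 13 lower with TMM scaling, where 43.8% of all symbols were called and 22.1% were lower, and 8 higher and 5 lower with library totals. With edgeR the interaction with number range was called for 7 of the 32, all with the more negative difference in rats 25 to 32, where 14.7% of all symbols were called and 7.64% in this direction. DESeq2 called 9 in this direction and 1 in the other. Among these FNIP2 had a log2 fold change of -0.08 in the lower range and of -1.25 in the higher range, and SLC36A4 of -0.01 and -0.77.

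**Figure D5:**
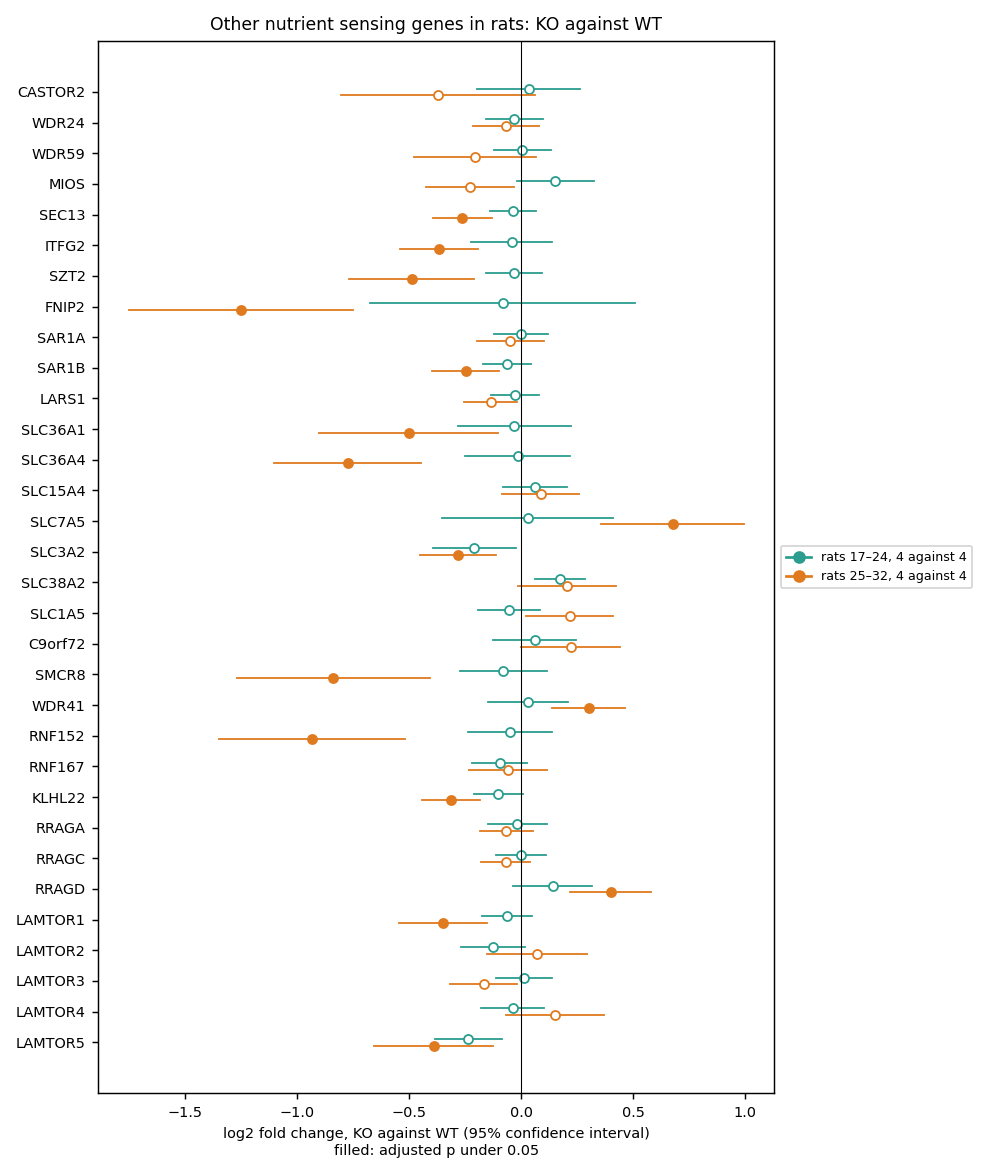
Log2 fold change of Ctns KO against Ctns WT for the other nutrient sensing genes tested in rats, with 95% confidence intervals, in rats 17 to 24 and rats 25 to 32 (4 against 4 each, edgeR with TMM scaling); filled symbols passed an adjusted p of 0.05. No symbol is filled in rats 17 to 24, and FNIP2 (-1.25) lies furthest to the left in rats 25 to 32.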

How the data were processed

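Kidney mRNA of 8 mice and 16 rats was sequenced, 1 library per animal, as paired reads of 100 nucleotides. The submitters' processing notes name bcl2fastq 2.20, STAR 2.7.3, DESeq2 1.24.0, R 3.6.1 and the builds mm10 and rn5, and the counting tool and annotation are not given in the sources used here. For the mouse, the authors deposited a scaled signal per gene, found from the values to be the reads plus 0.5 over the 75th percentile of the library plus 0.5, and whole reads (within 0.01) were recovered for 99.0% of values. The rat table deposited by the authors holds estimated counts with 1/6 added, which was taken off before rounding, and 97.7% were whole. The 10 genes had whole reads in every library, and no other symbol carried identical values.

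Genotype came from the sample labels. In R 4.3.3, mouse values were tested with limma 3.58.1 (trend, robust, log2(value + 1), no filter) and rat reads with edgeR 4.0.16 (quasi-likelihood, robust, TMM, filter on low counts), with Benjamini-Hochberg adjustment over all symbols and a threshold of 0.05. The fits were also run on simulated data with a common dispersion, as many genes raised as lowered and no difference between number ranges. Those runs therefore do not bear on the effects of number range or scaling. Alternatives were a pseudocount of 0.1, a mean filter of 0.1, DESeq2 1.42.0 and its size factors, limma-voom, no filter, number range as a covariate, each animal left out, and, added after seeing the data, library totals. Promoters came from RefSeq (GRCr8), by symbol. Depth bounds counting error only: it was at most 9.05% of a level for these genes in mice and 7.62% in rats, and the number of animals limits precision. The 10 genes and all gene lists were chosen with earlier results of these data known. Genes named were CTNS, the 10, and from the lists on nutrient sensing and on sestrin regulators those called in both species in the same direction and up to 4 per species with the largest change among those called. The remaining lists are given as counts and sums, with CD74 and UMOD named for their weight in a sum.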

Additional observations from a re-analysis of the deposited data

Results flagged for a closer look

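The difference in genotype effect between the rat and the mouse was past the threshold for SESN2, with an interaction of -0.35 on the log2(value + 1) scale (adjusted p = 0.0360, limma). SESN2 was lower in 8 of 8 Ctns KO rats than in any Ctns WT rat, and the mouse genotypes overlapped. The call did not hold with edgeR on the reads of both species (adjusted p = 0.0532). No single animal stood apart from its group beyond Dixon's critical value for any of the 10 genes, among 40 groups screened.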

How the results depend on the processing

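With 1 animal left out at a time, the number of the 10 genes called was 0 in all mouse fits, 2 to 4 over all rats, 1 in rats 17 to 24, 4 in rats 25 to 32, 0 to 1 for the interaction with number range, 1 to 2 among wild types and 0 to 1 for the interaction with species. The lowest count over all rats, 2, arose in the fits that left out rats 20, 24, 29, 30 and 31. With library totals in edgeR it was 1 over all rats, 0 in rats 17 to 24 and 2 in rats 25 to 32, and edgeR on the reads of both species gave 0 for the interaction with species. The remaining alternatives kept each count within 1.5 times its value. SESN3 (0.073) and NPRL2 (0.063) over all rats, and SESN3 (0.046) and NPRL3 (0.11) in rats 25 to 32, turned from negative to positive log2 fold changes with library totals, and the interaction of SLC38A9 with species became 0.00023 with edgeR. None of these genes was called either way. Uncalled log2 differences also changed sign when an animal was left out, with ranges in mice of -0.025 to 0.0040 for DEPDC5, -0.034 to 0.025 for SLC66A1 and -0.015 to 0.027 for SESN1. Over all rats they were -0.062 to 0.083 for SESN3 and -0.050 to 0.0052 for NPRL2. In rats 17 to 24 the range was -0.029 to 0.10 for SLC38A9. In rats 25 to 32 it was -0.26 to 0.14 for SESN3, -0.030 to 0.048 for DEPDC5, -0.088 to 0.0090 for NPRL3 and -0.032 to 0.11 for NPRL2. For the interaction with number range it was -0.0065 to 0.069 for SLC66A1 and -0.33 to 0.049 for SESN3, among wild types -0.25 to 0.13 for SESN3, and for the interaction with species -0.055 to 0.0040 for SLC66A1. The cause of these changes was not tested. No paired analysis was made because the sample labels name no litters or pairs.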
